A study of Mus musculus with 12 samples.

Results

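The replication-dependent histone genes supply the bulk histones that package newly copied DNA. They were taken as every row of both count tables whose symbol begins with Hist1h, Hist2h, Hist3h or Hist4h, which gave 68 of 23420 symbols. By the class named in the symbol, 6 encode linker histone H1, 18 H2a, 19 H2b, 12 H3 and 13 H4. The Hist1 cluster on chromosome 13 holds 54 of them, the Hist2 cluster on chromosome 3 holds 10, Hist3 on chromosome 11 holds 3, and Hist4h4 lies alone on chromosome 6. Of the 68, 67 matched a RefSeq gene by its present symbol or a synonym, and all coordinates are from GRCm38.p6 (mm10).

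Each group consisted of R1 mouse embryonic stem cells, an established line, kept on gelatin with LIF, the cytokine that holds such cells undifferentiated. The siKrr1 group had been transfected for 48 h with 1 of 3 siRNAs against Krr1, a factor of small ribosomal subunit assembly, called siKrr1 A, C and D after the columns of the tables. The control group comprised siGFP, siNC and Lipo, the last a control whose name states no siRNA. Lysates were split between RNA-seq after rRNA depletion and ribosome profiling, which sequences the stretch of mRNA covered by a ribosome (the footprint), giving 3 siKrr1 and 3 control libraries in each assay. Nothing states that the 3 controls, which differ in reagent, or the 3 siRNAs came from independent cultures, so the p-values measure the spread between these libraries.

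Histone mRNAs of this kind are made mainly in S phase. They generally carry no poly(A) tail and end instead in a stem-loop that is bound by SLBP and cut with help of the U7 snRNP. They are degraded quickly when DNA synthesis stops. H2a pairs with H2b and H3 with H4 in the core of the nucleosome, and H1 binds the DNA where it enters and leaves. Embryonic stem cells spend much of their short cycle in S phase. Depletion of rRNA, unlike selection of poly(A) RNA, keeps such mRNAs in the library. The genes exist in many near-identical copies, and because only uniquely aligned reads were counted, reads that fit several copies were lost, so the level of any single gene is uncertain.

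Krr1 itself had 33.7, 58.0 and 64.6 CPM in RNA of siKrr1 A, C and D, against 155, 151 and 160 CPM in siGFP, siNC and Lipo, where CPM is the count scaled to the library's size with its TMM factor. Relative to the control mean, RNA was thus 21.7%, 37.3% and 41.5%, and footprints were 18.9%, 37.5% and 31.4%, for A, C and D (edgeR quasi-likelihood adjusted p = 0.00228 in RNA and 0.000819 in footprints). Counts on genes were 31318772 to 39670139 per RNA library and 21615934 to 28911254 per footprint library. Of 6 stem cell markers 2 fell in RNA, where 2.11% of all tested genes were called lower. Nanog had 274, 344 and 280 CPM in siKrr1 RNA and 445, 453 and 449 CPM in control RNA (log2 fold change −0.58 ± 0.09 SE, adjusted p = 0.00758), and Zfp42 had 948, 996 and 768 CPM in siKrr1 RNA and 1217, 1202 and 1228 CPM in control RNA (−0.43 ± 0.09, adjusted p = 0.0290), a call lost without siKrr1 A, siGFP, siNC or Lipo (up to 0.111). The most abundant, Pou5f1 and Dppa5a, averaged 2669 and 1197 CPM in siKrr1 RNA and 2927 and 1172 CPM in control RNA and were not called, and the median of the 6 was −0.13. Of 6 fibroblast and feeder markers 3 had enough counts to test, and none of these was called. Thy1 had 1.06 to 2.80 CPM in siKrr1 RNA and 2.18 to 3.38 CPM in control RNA, Col1a1 and Col1a2 lay below 1 CPM in every RNA library, and Col3a1, Dcn and Lum had at most 0.0512 CPM in any RNA library and 0.185 CPM in any footprint library. The part of these marker values in the histone results was not tested.

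The members made up 2.39% to 2.71% of RNA counts on genes in siKrr1 libraries, against 2.64% to 2.88% in control libraries. In footprints they took 2.60% to 2.77% in siKrr1 libraries and 2.68% to 2.88% in control libraries. The 4 members Hist1h2ap, Hist1h2bq, Hist1h2br and Hist2h2aa1 were at 0 in all 12 libraries, which for 3 counts allows at most 0.0964 CPM in any RNA library and 0.138 CPM in any footprint library, for counting error and for uniquely aligned reads only. A further 3 in RNA and 5 in footprints had too few counts to test. That left 61 tested members in RNA and 59 in footprints, and the other counts below are over those.

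Because transcription of these genes is driven from compact promoters with class-specific elements, the RefSeq windows from 250 bases before to 50 after the start were searched on both strands. Windows were found for 61 members, 62 in all, and 32851 windows of all genes served as background. CCAAT, the site of NF-Y, stood in all 6 H1, all 17 H2a, all 17 H2b and all 10 H3 windows but in 3 of 12 H4 windows, against 37.41% of all windows. The octamer ATTTGCAT, a site of Oct-1 and other POU factors that is known from H2B promoters, stood in 7 of 17 H2b and 7 of 17 H2a windows, in none of the others, and in 1.735% of all windows. AAACACA, an element known from H1 promoters, stood in 5 of 6 H1 windows, 2 of 17 H2a and 2 of 17 H2b windows, in no H3 or H4 window and in 7.184% of all. TATAAA stood in 35 of the 62 windows and in 13.62% of all. GGTCC, the core of the H4 element bound by HiNF-P, stood in 11 of 12 H4 windows, in 1 H1, 5 H2a, 6 H2b and 4 H3 windows and in 45.49% of all. No motif contains another. In 9 pairs of an H2a and an H2b gene the starts lie head to head and the windows overlap. A site there can count in both classes, so the H2a and H2b counts are not separate. A match describes these letters only.

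The 250 bases before the start are shown 5′ to 3′ on the gene's strand for 7 members on which the results turn: Hist1h1a and Hist1h1d, the H1 genes with the most RNA, the H2b genes Hist1h2bm and Hist1h2bl, which fell in footprints, the most abundant H2b gene Hist2h2bb, the H3 gene Hist1h3i, whose footprints were higher in siKrr1 without passing the test, and Hist4h4, which lies alone in its cluster. Capitals mark, on either strand, the CCAAT box, the octamer, the TATA box, the H1 element and, in the H4 gene only, the H4 core in the H4 gene. The sequences are those of RefSeq on GRCm38.p6.
Hist1h1a, chr13:23763418-23763667, plus strand: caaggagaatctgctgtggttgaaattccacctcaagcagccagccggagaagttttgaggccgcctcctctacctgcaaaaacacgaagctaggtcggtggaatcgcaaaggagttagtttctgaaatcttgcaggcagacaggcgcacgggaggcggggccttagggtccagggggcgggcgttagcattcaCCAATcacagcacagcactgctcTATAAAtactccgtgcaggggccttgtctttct
Hist1h1d, chr13:23554782-23555031, plus strand: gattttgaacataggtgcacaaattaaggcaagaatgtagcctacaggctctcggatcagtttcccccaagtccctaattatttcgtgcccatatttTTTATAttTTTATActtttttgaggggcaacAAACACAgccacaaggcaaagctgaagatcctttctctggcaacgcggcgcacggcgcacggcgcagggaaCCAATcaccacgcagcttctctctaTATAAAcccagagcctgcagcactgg
Hist1h2bm, chr13:21721794-21722043, plus strand: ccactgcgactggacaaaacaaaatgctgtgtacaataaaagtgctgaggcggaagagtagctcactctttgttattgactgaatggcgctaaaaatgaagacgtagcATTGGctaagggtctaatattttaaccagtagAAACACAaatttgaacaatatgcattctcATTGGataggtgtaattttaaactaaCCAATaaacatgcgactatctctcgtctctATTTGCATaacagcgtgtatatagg
Hist1h2bl, chr13:21716184-21716433, minus strand: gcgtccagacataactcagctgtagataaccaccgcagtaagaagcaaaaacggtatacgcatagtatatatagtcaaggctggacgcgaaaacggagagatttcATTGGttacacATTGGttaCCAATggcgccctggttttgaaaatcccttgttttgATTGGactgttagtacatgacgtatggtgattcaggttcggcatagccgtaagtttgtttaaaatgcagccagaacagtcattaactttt
Hist2h2bb, chr3:96269450-96269699, plus strand: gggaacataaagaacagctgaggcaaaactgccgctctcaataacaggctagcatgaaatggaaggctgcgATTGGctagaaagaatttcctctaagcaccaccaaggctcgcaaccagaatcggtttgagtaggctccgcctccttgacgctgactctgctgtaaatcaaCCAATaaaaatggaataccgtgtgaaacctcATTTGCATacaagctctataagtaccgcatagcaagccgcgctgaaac
Hist1h3i, chr13:21783398-21783647, minus strand: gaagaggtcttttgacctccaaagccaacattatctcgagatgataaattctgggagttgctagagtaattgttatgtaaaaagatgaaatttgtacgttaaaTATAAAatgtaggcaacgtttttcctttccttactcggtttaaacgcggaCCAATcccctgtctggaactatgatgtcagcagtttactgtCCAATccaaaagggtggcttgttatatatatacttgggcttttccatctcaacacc
Hist4h4, chr6:136804432-136804681, minus strand: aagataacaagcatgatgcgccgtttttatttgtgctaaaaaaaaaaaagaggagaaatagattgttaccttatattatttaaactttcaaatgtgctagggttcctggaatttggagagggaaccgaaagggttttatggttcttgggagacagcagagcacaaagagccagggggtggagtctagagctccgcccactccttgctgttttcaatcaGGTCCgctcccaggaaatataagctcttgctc
Hist1h2bm holds the octamer and 3 CCAAT boxes, while Hist1h2bl holds 4 CCAAT boxes and no octamer. They are the 2 members with the smallest adjusted p in footprints, and the part of these elements in their change was not tested. AAACACA stands in Hist1h1d and also in Hist1h2bm, and not in Hist1h1a.

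Histone RNA was slightly and broadly lower after Krr1 knockdown, but no single gene passed the test. Summed over the 68 members, RNA was 25583, 27405 and 23020 CPM in siKrr1 A, C and D, against 28107, 29233 and 26609 CPM in siGFP, siNC and Lipo. The siKrr1 mean was 90.5% of the control mean, and siKrr1 C overlapped the lowest control, Lipo. Of 61 tested members, 54 (88.5%) had a log2 fold change below 0, against 50.2% of all 14038 tested genes, and the median was −0.17 against −0.001. Without siKrr1 D the median was −0.11, and the log2 ratio of the sums was −0.07 in place of −0.14. By library, the median log2 level over the members, relative to the mean of the controls, was −0.17, −0.06 and −0.29 in siKrr1 A, C and D. It was 0.02, 0.06 and −0.07 in siGFP, siNC and Lipo, so Lipo lay below siKrr1 C. The members share sequence and were measured in the same libraries. Counts of members, here and below, are therefore not counts of independent genes. By edgeR no member was called in RNA at an adjusted p under 0.05, while 4.8% of all tested genes were called, 2.11% lower and 2.69% higher. At an unadjusted p under 0.05 there were 22 members (36.1%), all lower, against 20.9% of all genes in either direction and 9.83% lower. DESeq2 called 5 members (8.33%), all lower, near its share of all genes, 8.86%. Without siKrr1 C edgeR called 7 members (11.5%) and 9.09% of all genes. The smallest adjusted p was 0.0586 for Hist1h2bm. In 17 of 61 members all 3 siKrr1 values lay below all 3 controls, against 13.4% of all genes, and in none did they lie above, against 13.6%. In bulk RNA, fewer cells in S phase and less histone RNA per cell cannot be told apart.

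**Figure D1:**
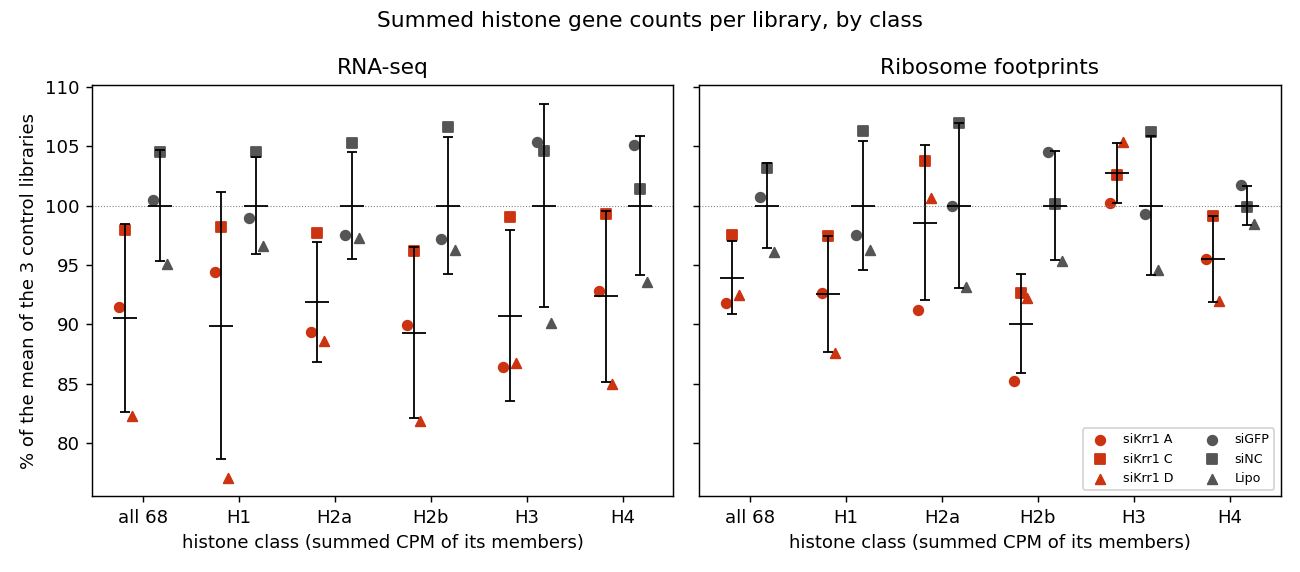
Summed CPM of the histone genes in each library, as a percent of the mean of the 3 controls, for RNA (left) and footprints (right). Points are libraries (red siKrr1, grey control), horizontal bars the group mean and error bars 1 SD over 3 libraries. In RNA every class averaged 89.3% to 92.3% of control in siKrr1 libraries with siKrr1 C highest. In each assay H2b is the only class with all 3 siKrr1 points below all 3 control points, in RNA by a narrow margin.

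The classes shared this small shift in RNA. The siKrr1 mean of the summed RNA was 89.9% of control for H1, 91.9% for H2a, 89.3% for H2b, 90.7% for H3 and 92.3% for H4. The SD over the 3 siKrr1 libraries was larger than this difference in H1, where the sum was 7478 ± 935 CPM in siKrr1 RNA and 8318 ± 338 CPM in control RNA (SD, n = 3 each). The summed RNA of siKrr1 D was the lowest of the 6 libraries in every class except H3, where siKrr1 A was lower. Median log2 fold changes were −0.15 for H1, −0.15 for H2a, −0.23 for H2b, −0.15 for H3 and −0.18 for H4. siKrr1 D had the lowest value of the siKrr1 libraries in 42 of the 61 members, and siKrr1 C the highest in 43. siKrr1 A, with the least Krr1 RNA, lay between them in the sum over all members, at 91.4% of control against 97.9% in siKrr1 C and 82.3% in siKrr1 D.

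Footprints on histone genes were also lower in sum. In the edgeR fit of all libraries 5 single genes, all H2b or H2a, fell. Other fits also called H1 and H4 genes lower and H3 genes higher. Summed footprints were 25888, 27479 and 26072 CPM in siKrr1 A, C and D and 28397, 29084 and 27085 CPM in siGFP, siNC and Lipo, a mean of 93.9% of control, with siKrr1 C again above Lipo. Of 59 tested members, 42 (71.2%) were below 0, against 48.5% of all 13287 tested genes, and the median was −0.08 against 0.007. The median was −0.13 without siKrr1 C or without Lipo. The called members were 3 H2b genes (Hist1h2bm, Hist1h2bl, Hist1h2bj) and 2 H2a genes (Hist1h2af, Hist1h2aa), all lower, while 6.07% of all tested genes were called, 2.68% lower and 3.39% higher. In 14 of 59 members all siKrr1 values lay below all controls (13.6% of all genes), 8 of them H2b genes, and in 1 member, Hist1h3i, they lay above (14.3% of all genes).

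Linker histone H1, which compacts the fibre between nucleosomes, showed no called gene in either assay in the edgeR fit of all libraries. Hist1h1a (H1.1) had 2811, 2987 and 2059 CPM in RNA of siKrr1 A, C and D, against 3128, 3249 and 3050 CPM in siGFP, siNC and Lipo (log2 fold change −0.26 ± 0.12 SE, adjusted p = 0.240). All siKrr1 values lay below the controls, with siKrr1 D far below siKrr1 A and C. Hist1h1b (H1.5) had 1609, 1557 and 1116 CPM in siKrr1 RNA and 1574, 1688 and 1586 CPM in control RNA, so only siKrr1 D stood apart from the rest. Hist1h1d (H1.3) had 1770, 1932 and 1721 CPM in siKrr1 RNA and 1750, 1874 and 1768 CPM in control RNA, and the groups overlapped (0.01 ± 0.08). In footprints Hist1h1b had a log2 fold change of −0.24 ± 0.08 (adjusted p = 0.0826), Hist1h1a −0.20 ± 0.08 (0.165) and Hist1h1d 0.05 ± 0.06 (0.697). Hist1h1b footprints were called lower with DESeq2 (adjusted p = 0.0365), and by edgeR without the low-count filter (0.00915) or without siKrr1 C (0.0375). Footprints of Hist1h1a were called lower by edgeR without the filter (0.0429) or without siKrr1 C (0.0333). The testis-specific linker gene Hist1h1t, at 4.22 to 4.64 CPM in siKrr1 RNA and 6.05 to 7.06 CPM in control RNA, had one of the lowest fold changes of all members (−0.52 ± 0.15, adjusted p = 0.0677), with no overlap between groups. DESeq2 called its RNA lower (adjusted p = 0.0382).

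In H2b, 16 of 17 tested genes were below 0 in footprints and 15 of 17 in RNA, with median log2 fold changes of −0.22 and −0.23. Summed H2b footprints were 6590, 7164 and 7129 CPM in siKrr1 A, C and D, against 8077, 7742 and 7370 CPM in siGFP, siNC and Lipo, and the groups did not overlap. Summed H2b RNA was 7057, 7548 and 6421 CPM in siKrr1 A, C and D, against 7624, 8365 and 7551 CPM in siGFP, siNC and Lipo. These groups did not overlap either, but siKrr1 C lay only just below Lipo. Hist1h2bm (chr13:21722044-21722526) had 170, 198 and 208 CPM in footprints of siKrr1 A, C and D, against 265, 291 and 267 CPM in siGFP, siNC and Lipo (−0.51 ± 0.08, adjusted p = 0.00475). The lowest control was above the highest siKrr1 library, and the call was kept when any 1 of the 6 libraries was left out (adjusted p up to 0.0363). Its RNA, at 215, 220 and 189 CPM in siKrr1 and 243, 282 and 249 CPM in control libraries, differed by −0.31 ± 0.08 (adjusted p = 0.0586).

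Hist1h2bl (chr13:21715711-21716183) had 75.5, 79.0 and 82.0 CPM in siKrr1 footprints and 99.7, 97.5 and 95.1 CPM in control footprints (−0.31 ± 0.06, adjusted p = 0.0171). Hist1h2bj (chr13:22043198-22043658) had 370, 375 and 415 CPM in siKrr1 footprints and 511, 428 and 463 CPM in control footprints (−0.27 ± 0.07, adjusted p = 0.0493). Neither gene's groups overlapped, but neither call held in every fit with 1 library left out. Hist1h2bl lost its call without siGFP, without siNC or without Lipo (adjusted p up to 0.0854), and Hist1h2bj in every such fit except that without siKrr1 D (up to 0.184). The most abundant member of all, Hist2h2bb, had 3472, 3650 and 3377 CPM in siKrr1 footprints and 3836, 3835 and 3544 CPM in control footprints, and siKrr1 C overlapped Lipo (−0.10 ± 0.06, adjusted p = 0.343). Hist1h2bb and Hist1h2bk, the next in RNA, had −0.15 ± 0.10 (0.422) and −0.25 ± 0.07 (0.0556) in footprints. Hist2h2be, at 8.35, 8.92 and 8.40 CPM in siKrr1 footprints and 11.8, 10.6 and 9.67 CPM in control footprints, had a low fold change without passing the test (−0.32 ± 0.12, adjusted p = 0.150). Hist3h2ba had the highest RNA fold change of the members, with 24.1, 21.2 and 19.9 CPM in siKrr1 RNA and 20.2, 18.1 and 17.9 CPM in control RNA (0.21 ± 0.11, adjusted p = 0.296), and its groups overlapped.

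Among the H2a genes the footprint sum was not separated, at 2058, 2340 and 2269 CPM in siKrr1 and 2254, 2411 and 2100 CPM in control libraries. Hist1h2af (chr13:23533875-23534378) had 202, 206 and 196 CPM in siKrr1 footprints and 259, 250 and 222 CPM in control footprints (−0.27 ± 0.06, adjusted p = 0.0316). Hist1h2aa (chr13:23934437-23934913), an H2A variant best known from the testis, had 16.7, 14.1 and 13.9 CPM in siKrr1 footprints and 24.8, 20.6 and 17.8 CPM in control footprints (−0.50 ± 0.13, adjusted p = 0.0471). In both genes the groups did not overlap. Their RNA was also below all controls, with −0.31 ± 0.09 (adjusted p = 0.0755) for Hist1h2af and −0.65 ± 0.19 (0.0756) for Hist1h2aa, the lowest RNA fold change of any member. Without siKrr1 D, siGFP or siNC the footprint call of Hist1h2af was lost (adjusted p up to 0.139), and that of Hist1h2aa in every such fit except that without siKrr1 A (up to 0.174). Hist1h2ab, Hist2h2ac and Hist1h2ak, the most abundant H2a genes in RNA, had footprint log2 fold changes of 0.05, −0.07 and −0.03 and adjusted p-values of 0.830, 0.683 and 0.865.

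**Figure D2:**
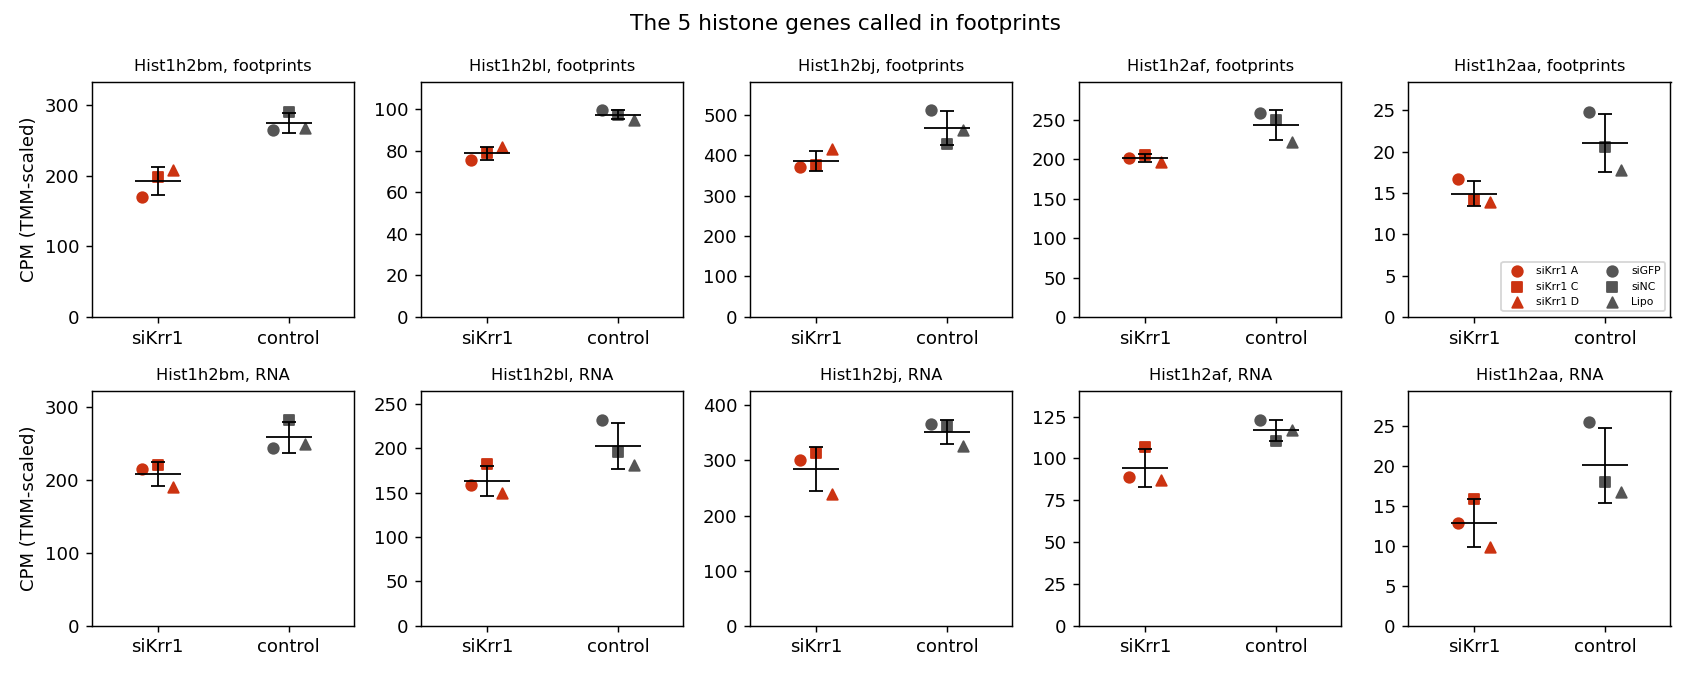
RNA and footprint CPM of the 5 histone genes called lower in footprints, by library. Points are single libraries, horizontal bars group means and error bars 1 SD over 3 libraries, with siKrr1 left of control in each panel. The footprint values of siKrr1 and control libraries do not overlap in any of the 5 genes, and only Hist1h2bm kept its call in every fit that left out 1 library.

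For H3 the sum was 90.7% of control in RNA and 103% in footprints. Its RNA sum averaged 3037 ± 241 CPM in siKrr1 libraries and 3347 ± 287 CPM in control libraries, and its footprint sum 2592 ± 64 CPM in siKrr1 libraries and 2523 ± 148 CPM in control libraries (SD, n = 3 each). In both assays the siKrr1 and control libraries overlapped. Hist1h3i had 604, 561 and 617 CPM in siKrr1 footprints and 539, 509 and 492 CPM in control footprints (0.21 ± 0.06, adjusted p = 0.0580), without overlap. Its RNA was 121, 132 and 128 CPM in siKrr1 libraries and 153, 131 and 98.5 CPM in control libraries, within the range of the controls (−0.01 ± 0.13). Hist1h3c, Hist1h3f and Hist1h3e, the most abundant H3 genes in RNA, had −0.09, −0.19 and −0.12 in RNA and 0.17, 0.02 and 0.01 in footprints. None was called in the edgeR fit of all libraries. Without siKrr1 A, edgeR called Hist1h3c higher in footprints (0.28, adjusted p = 0.0311).

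H4 likewise had no called gene in the edgeR fit of all libraries. By edgeR Hist1h4a was called lower in footprints without the low-count filter (adjusted p = 0.0495) or without siKrr1 A (0.0467). Hist1h4k was called lower in RNA without siKrr1 C (0.0397). Hist4h4, the single gene of its cluster, had 1116, 1093 and 1011 CPM in siKrr1 RNA and 1019, 1080 and 979 CPM in control RNA, with overlap (0.06 ± 0.07, adjusted p = 0.677). Hist1h4h and Hist1h4d, which had more control RNA than Hist4h4 per kilobase of gene, had RNA log2 fold changes of −0.17 ± 0.10 and −0.13 ± 0.09 and footprint log2 fold changes of −0.06 ± 0.05 and −0.07 ± 0.05. Hist1h4j had the lowest RNA value of the class, with 96.8, 89.1 and 58.8 CPM in siKrr1 libraries and 103, 110 and 107 CPM in control libraries (−0.39 ± 0.15, adjusted p = 0.154). Hist1h4n had the lowest footprint value of the class (−0.30 ± 0.17, adjusted p = 0.325). By cluster, 47 of 49 tested Hist1 members and 7 of 8 Hist2 members were below 0 in RNA. The 3 Hist3 members (Hist3h2a, Hist3h2ba and Hist3h2bb-ps) and Hist4h4 were not, at 0.01 to 0.21, and none of them was called.

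Levels per kilobase of gene, which scale counts for gene length, were taken for the 57 tested members spanning at most 1000 bases. Among these Hist2h2bb was the most abundant in RNA, with 7711 ± 571 CPM per kb in siKrr1 libraries and 8204 ± 509 CPM per kb in control libraries (SD, n = 3 each). Hist1h1a followed with 3515 ± 661 CPM per kb in siKrr1 and 4218 ± 135 CPM per kb in control libraries. In control libraries Hist1h4h (2428 ± 297), Hist1h4d (2420 ± 100), Hist4h4 (2337 ± 116) and Hist1h1d (2316 ± 86) CPM per kb came next and lay within each other's spread. These levels count uniquely aligned reads only, so the order of the genes is uncertain.

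Footprints moved with RNA across the members. Over the 59 members tested in both assays the log2 fold changes correlated with r = 0.65 (rho = 0.63), a description only, as both assays came from the same lysates and many genes share sequence. Both changes were below 0 in 41 members, both above in 5, and in 12 the RNA was below 0 and the footprints were above.

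**Figure D3:**
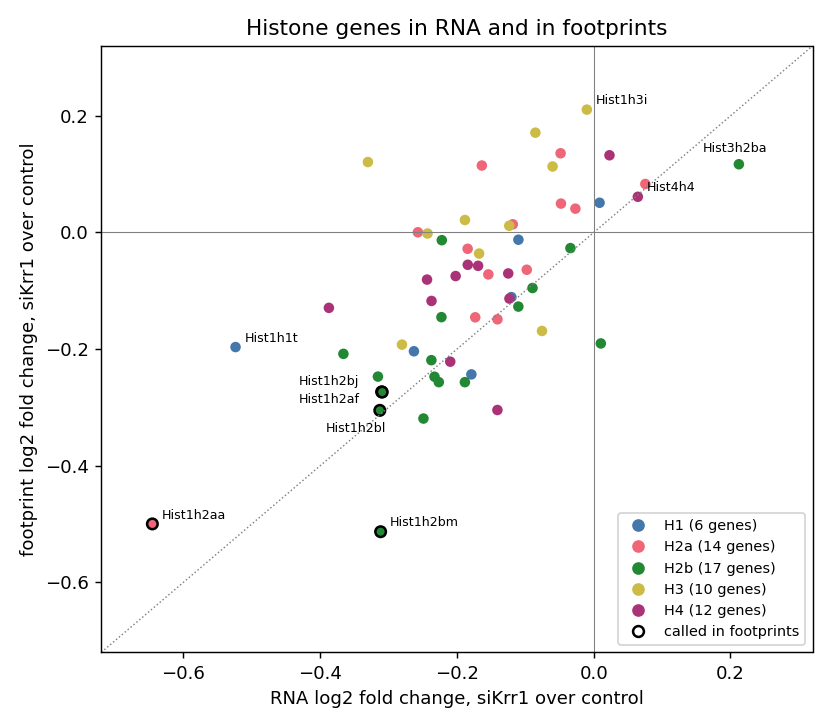
Log2 fold change (siKrr1 over control) in RNA (x axis) and in footprints (y axis) for the 59 histone genes tested in both, coloured by class; black outlines mark genes called in footprints and the dotted line equal changes. Most points lie below 0 in RNA, Hist1h2bm lies below the line, and the points of Hist1h2bj and Hist1h2af coincide.

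Translational efficiency, the footprint change beyond the RNA change, was tested as the interaction of assay and condition. No member of 60 tested was called and no gene of 14236 (0% of all), and with the lysate as a block 6 genes but no member were called. At an unadjusted p under 0.05 there was 1 member, Hist2h3b, and 337 genes of all (2.37%). DESeq2 called 2 genes, none a member. In 5 members the footprint-to-RNA ratios of all 3 siKrr1 lysates lay above all 3 controls, against 6.79% of all genes, and in none below, against 5.36%. Hist2h3b had RNA of 62.1, 63.3 and 53.6 CPM in siKrr1 and 75.6, 84.1 and 65.2 CPM in control libraries and footprints of 44.2, 43.5 and 52.3 CPM in siKrr1 and 39.4, 49.6 and 39.8 CPM in control libraries (0.45 ± 0.16, unadjusted p = 0.0132, edgeR adjusted p = 1.00). Its RNA groups did not overlap and its footprint groups did. Simulated 1.5-fold changes were recovered in 28% of genes in this test, so changes of the size seen here were mostly not detectable. The median over all members was 0.07, and 0.02 without the lysate of siKrr1 D. Of the 60 tested members, 15 (25%) had an efficiency change below 0, against 49.9% of all tested genes. Median log2 changes in efficiency were 0.05 for H1, 0.09 for H2a, −0.01 for H2b, 0.21 for H3 and 0.11 for H4. The H3 median includes Hist2h3c2, which had only 0.237 to 0.707 CPM in RNA. Among single genes in control libraries the ratio of footprint to RNA CPM ran from 0.262 ± 0.017 for Hist1h4b to 4.14 ± 0.77 for Hist1h3i and 5.05 ± 0.74 for the pseudogene Hist3h2bb-ps, and it was 0.288 ± 0.043, 4.70 ± 0.39 and 4.41 ± 0.77 in siKrr1 libraries, for the same genes in that order. Hist3h2bb-ps had only 11.7 ± 2.0 CPM per kb in control RNA. Only uniquely aligned reads were counted, and the share lost may differ between genes and assays. These ratios therefore do not rank the genes by translation.

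Many H2a and H2b genes lie head to head and share the stretch between their starts, and 9 such pairs were found. In the 8 pairs with both genes tested the gap between starts was 164 to 281 bases. Both genes were below 0 in RNA in all 8 pairs and in footprints in 5. The H2b gene had the lower log2 fold change in 4 of 8 pairs in RNA and in 4 of 8 in footprints. Hist1h2bl and its partner Hist1h2ai had −0.31 and 0.11 in footprints, and Hist1h2bp and Hist1h2an −0.25 and 0.14. In the pair of Hist1h2ba and Hist1h2aa, both known from the testis, the order was the other way, at −0.26 and −0.50.

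**Figure D4:**
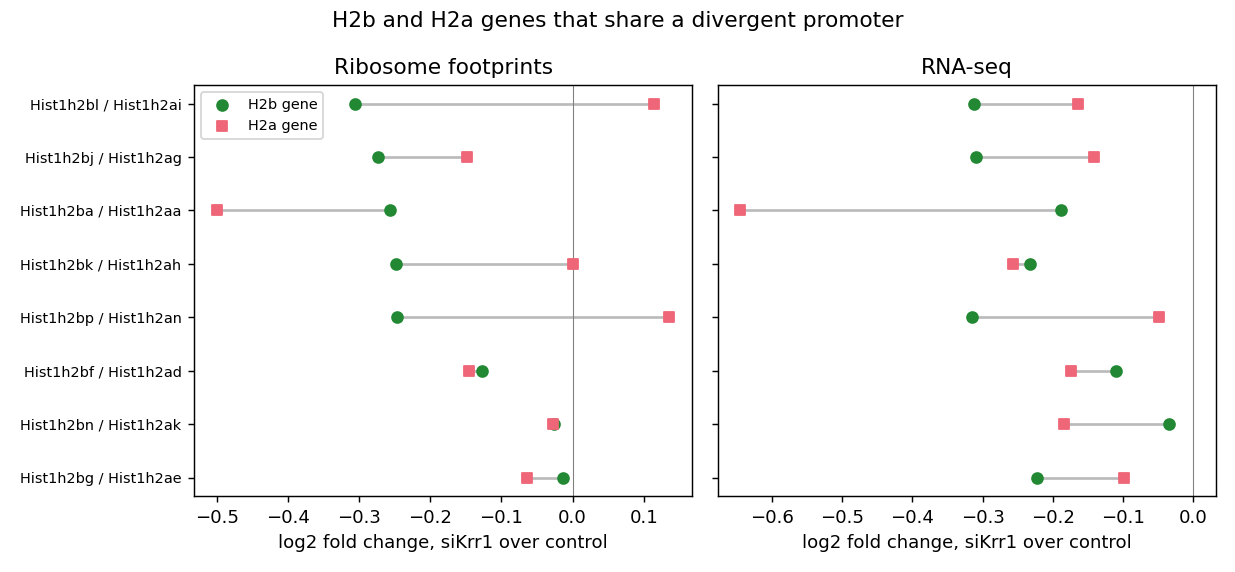
Log2 fold changes (siKrr1 over control) of the 2 genes of each head-to-head H2b and H2a pair, in RNA and in footprints. All 16 RNA values are below 0, and in footprints the H2b gene is the lower of the pair in 4 of 8.

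Genes that act on histone mRNAs were largely not called. Slbp, the stem-loop binding protein, fell in footprints, with 212, 218 and 215 CPM in siKrr1 and 241, 262 and 262 CPM in control libraries (−0.25 ± 0.05, adjusted p = 0.0265), without overlap. Its RNA differed by −0.24 ± 0.07 (adjusted p = 0.0924). Slbp was the 1 of 17 genes of histone pre-mRNA processing that was called in footprints, and none was called in RNA. Over all tested genes 6.07% were called in footprints and 4.8% in RNA. Of 7 genes of histone mRNA decay, Upf1, an RNA helicase that acts on these mRNAs, rose in footprints (0.21 ± 0.05, adjusted p = 0.0352), and of 17 genes of histone chaperones and acetylation Asf1a, a chaperone of H3 and H4, fell (−0.20 ± 0.05, adjusted p = 0.0481). The call of Slbp was lost without siKrr1 D, siNC or Lipo (adjusted p up to 0.150), and those of Upf1 and Asf1a in every fit that left out 1 library except that without siKrr1 C (up to 0.153 and 0.199). None of the 6 genes of histone gene transcription was called in either assay, and none of the 11 genes listed as replication-independent histone genes. Such genes are generally, though not in every case, polyadenylated and expressed outside S phase. The most abundant genes of these lists (Snrpb, Srrt, Ccne1, Cdk2, Exosc10, Ssrp1, Npm1, H2afx and H3f3b) had log2 fold changes of −0.15 to 0.16 in RNA and −0.13 to 0.20 in footprints. H2afx had 632 ± 42 CPM in siKrr1 RNA and 640 ± 71 CPM in control RNA (SD, n = 3 each).

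S-phase genes, listed because histone mRNA follows that phase, fell in a few cases. Of 28, 3 were called lower in RNA, namely Tk1 (−0.42 ± 0.08, adjusted p = 0.0182), Rrm2 (−0.33 ± 0.07, 0.0277) and Pcna (−0.35 ± 0.08, 0.0289), and none higher, against 2.11% of all tested genes lower and 2.69% higher. These encode thymidine kinase, a subunit of ribonucleotide reductase and the sliding clamp of DNA polymerase. In footprints 6 were called lower, among them Rrm2 (−0.36 ± 0.05, adjusted p = 0.00284), Tk1 (−0.43 ± 0.08, 0.00976), Cdc6 (−0.34 ± 0.07, 0.0132), Mcm4 (−0.23 ± 0.05, 0.0226) and Pola1 (−0.26 ± 0.06, 0.0230), and none higher, against 2.68% of all tested genes lower and 3.39% higher. Mcm5 and Mcm2, the most abundant of the list, had −0.16 and −0.20 in RNA and −0.14 and −0.12 in footprints. The median log2 fold change of the 28 was −0.14 in RNA and −0.15 in footprints, against −0.17 and −0.08 for the histone members. Leaving out 1 library gave 0 to 6 called S-phase genes in RNA (0 without siGFP, without siNC or without Lipo, and 6 without siKrr1 C) and 1 to 8 in footprints (1 without siNC or without Lipo, 3 without siGFP, 8 without siKrr1 C), where Rrm2 kept its call in all 6. Over all genes, such fits gave 114 to 1298 called genes in RNA and 131 to 1337 in footprints. The part of these S-phase genes in the histone values was not tested.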

How the data were processed

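The authors deposited read counts for each gene symbol, from alignments to mm10; the submitters' processing notes name STAR and HTSeq, and no version, annotation, strand setting or trimming is given in the sources used here. Only unique alignments were counted, per the closing lines of the deposited tables, which removes reads shared by near-identical histone copies. Reads on no feature (31.2% to 33.4% of RNA and 57.5% to 63.3% of footprint alignments) stayed out. Knockdown columns carry letters and the titles numbers, so columns were assigned by group.

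Counts were fitted over all genes with edgeR 4.0.16 (limma 3.58.1, R 4.3.3; filterByExpr, TMM, quasi-likelihood test, Benjamini-Hochberg adjustment over all genes, threshold 0.05), and with DESeq2 1.42.0 as an alternative. Each standard error is the log2 fold change divided by the square root of F. Other alternatives were other size factors, no low-count filter, leaving out each library and, for efficiency, the lysate as a replicate block. The labels state that each lysate was divided between the assays, and the columns share names; deviations from group means correlated within a lysate (r = 0.265 to 0.713 over 6117 genes with at least 20 CPM), above the correlation with any other lysate of its group. On simulated data, 2-fold changes were recovered in 92% of genes in RNA and in footprints and 73% in efficiency.

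Members and lists were chosen with earlier results of these data known. The genes named are Krr1, the 3 most abundant members per class, called members, the 3 highest and lowest fold changes per comparison, and per list up to 6 called and the 2 most abundant genes. Hist1h2ba, Hist1h2bp, Hist1h2ai, Hist1h4a, Hist1h4b, Hist1h4k, Col1a1, Col3a1, Dcn and Lum lie outside this rule and were chosen after their values were seen.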

Additional observations from a re-analysis of the deposited data

How the results depend on the processing

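The median log2 fold change of the histone genes kept its direction under every alternative run, as did their summed level, but some values moved by over 1.5 times. Without siKrr1 D the RNA median was −0.11 in place of −0.17, the log2 ratio of summed RNA −0.07 in place of −0.14 and the efficiency median 0.02 in place of 0.07. The efficiency median was 0.05 without siGFP. The footprint median, −0.08, was −0.05 with library size alone and −0.13 without siKrr1 C or without Lipo. Calls of single genes did not hold as well. In RNA the count of called histone genes, 0, became 1 with library size alone (1.64%, against 4.57% of all genes) and 3 without the low-count filter (4.69%, against 5.74%). It became 5 with DESeq2 (8.33%, against 8.86% of all genes) and 0 to 7 when 1 library was left out, 7 without siKrr1 C (11.5%, against 9.09%). All were lower. Over all genes, 674 became 1059 without the filter, 1195 with DESeq2 and 114 to 1298 with 1 library left out. In footprints the 5 called histone genes (8.47%, against 6.07% of all genes) became 12 without the filter (18.8%, against 7.42% of all genes) and 8 with DESeq2 (13.6%, against 8.95%). With 1 library left out they became 1 to 7. There were 7 without siKrr1 C (11.9%, against 9.91%), and 1 without siGFP (1.69%, against 1.82%) or without siNC (1.69%, against 1.51%). Hist1h3i, higher in siKrr1, was among those called without the filter, with DESeq2, without siKrr1 C and with library size alone (adjusted p = 0.0339 there). Hist1h3c, also higher, was called without siKrr1 A (edgeR adjusted p = 0.0311). The 806 genes became 1400 without the filter and 131 to 1337 with 1 library left out. With library size alone the split of footprint calls was 579 higher and 285 lower, against 450 higher and 356 lower, and 37 in place of 42 histone genes were below 0. For efficiency, 0 genes became 2 without the filter, 2 with DESeq2, 6 with the replicate block and 0 to 1 with 1 lysate left out, and no histone gene was called in any of these. The replicate block was run for efficiency only. The counts of called list genes under these alternatives and the DESeq2 medians were added after the data were seen. The cause of these differences was not tested. Genes at low counts, such as Hist2h3c1 and Hist2h3c2 with under 1 CPM, are limited by depth.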
